A study of Mus musculus with 2 samples.

Results

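The genes that write and remove DNA methylation were examined in mouse embryonic stem (ES) cells in which the germ cell zinc finger protein CTCFL was or was not expressed. The group held 10 named genes: the DNA methyltransferase genes Dnmt1, Dnmt3a and Dnmt3b, the cofactor genes Dnmt3l, Uhrf1 and Uhrf2, the demethylation genes Tet1, Tet2 and Tet3, and the thymine DNA glycosylase gene Tdg. They were chosen by name, and a probe set was used where the platform annotation gave it 1 gene symbol equal to such a name. This found 12 probe sets for 9 of the 10 genes, out of 19938 named genes on the array. Tdg had no such probe set and is not among the results. In the RefSeq annotation of GRCm38.p6 the genes lie on chromosome 9 (Dnmt1), 12 (Dnmt3a), 2 (Dnmt3b), 17 (Uhrf1), 19 (Uhrf2), 3 (Tet2), 6 (Tet3) and 10 (Dnmt3l, Tet1 and Tdg). The induced cells carried the doxycycline-inducible transgene CTCFL_V5_GFP, which encodes CTCFL with a V5 tag and a green fluorescent protein (GFP), and were collected by GFP sorting after 3 days with doxycycline. The non-induced cells carried the same transgene and received neither doxycycline nor sorting. The line was made in ROSA26-rtTA ES cells by transfection and drug selection, and both groups were grown without feeder cells in medium with leukemia inhibitory factor.

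Each group was measured on 1 Affymetrix Mouse Gene ST array, so there was no replicate error, no test was possible and every statement below is about these arrays. Doxycycline, sorting and CTCFL differed together and cannot be told apart. Values are log2 signals and differences are induced minus non-induced, so that a difference of -1 is a signal at 50% of the non-induced level. Since probe sets differ in how strongly they bind their transcript, signals of different probe sets were not set against each other. Sums over marker lists took the same probe sets on both arrays. The brightest probe sets weigh most in such sums, which are not amounts of RNA. The median of all gene values, 6.36, is called the floor, and counts by size took only genes whose signal reached it on at least 1 array. By this, 10697 genes and 8 of the 9 measured genes of the group were at or above the floor, Tet3 being the exception. Ctcfl was at 9.44 on the induced array and 5.99 on the non-induced array, which matched the labels. The ES cell markers Pou5f1 (11.98 induced, 11.96 non-induced), Sox2 (10.82 and 10.83) and Nanog (10.86 and 11.08) were high on both arrays. Because these are bulk RNA samples, fewer cells that express a gene and less RNA per cell cannot be told apart.

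In mammals, DNA methylation is laid down on cytosines of CpG dinucleotides by the de novo methyltransferases DNMT3A and DNMT3B, with DNMT3L as a cofactor that has no catalytic activity of its own. After replication the pattern is copied by DNMT1, which UHRF1 brings to hemimethylated sites. The TET dioxygenases oxidize methylcytosine, and TDG removes the more oxidized bases so that base excision repair can restore cytosine. ES cells are known for high expression of Dnmt3b, Dnmt3l and Tet1, yet they tolerate the loss of DNA methylation, and many germ cell genes are kept silent in somatic cells by promoter methylation.

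The widest differences of the group were those of the de novo genes Dnmt3l and Dnmt3b. Dnmt3l was at 8.80 on the induced array and at 9.64 on the non-induced array (probe set 10364346). The induced array had the lower signal, with a difference of -0.84, or 55.7% of the non-induced level. Dnmt3b was at 7.42 on the induced array, against 7.94 on the non-induced array (probe set 10477325). This is a difference of -0.51, or 70.1% of the non-induced level. Dnmt3a, the other catalytic enzyme, was at 8.26 induced and 8.39 non-induced (probe set 10394209), a difference of -0.14. Within the de novo genes the differences therefore spanned 0.71 on the log2 scale between Dnmt3l and Dnmt3a. A shift of a whole array by a constant leaves such a gap between genes as it is. Of the 10697 genes at or above the floor, 2.99% had a difference as low as that of Dnmt3l or lower, 10.9% as low as that of Dnmt3b and 38.2% as low as that of Dnmt3a.

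**Figure D1:**
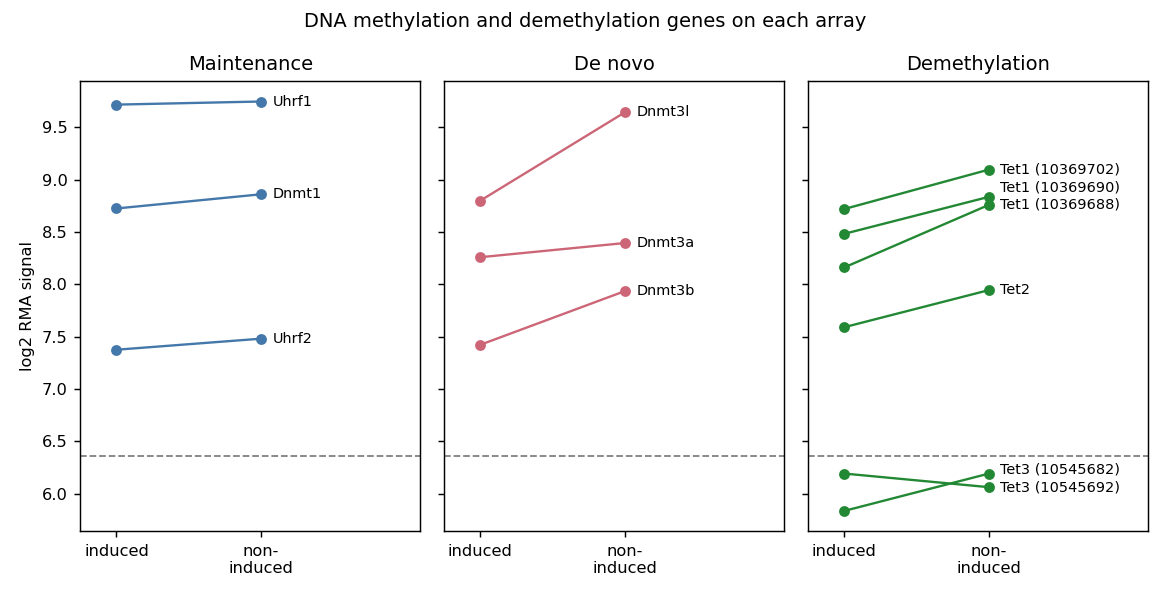
Log2 signal (y axis) of each of the 12 probe sets on the induced array and the non-induced array (x axis), 1 point per array joined by a line, in panels for maintenance, de novo and demethylation genes. The dashed line is the floor of 6.36, and numbers in brackets are probe sets of genes that have several. The line of Dnmt3l is the steepest (8.80 against 9.64), those of the maintenance genes are nearly flat, and Tet3 lies below the floor.

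The promoters of Dnmt3b and Dnmt3l are shown because these genes had the widest differences and because CTCFL binds sites that resemble the consensus of its paralog CTCF. Each is a RefSeq window of 300 bases in GRCm38.p6, from 250 bases before to 50 bases after an annotated start. It is written 5′ to 3′ on the strand of the gene, with matches to AGGNGGC, a core of the CTCF motif searched on both strands, in capitals. The Dnmt3b window is chr2:153649199-153649498 on the + strand, and the Dnmt3l windows are chr10:78042037-78042336 and chr10:78049592-78049891 on the + strand.
Dnmt3b: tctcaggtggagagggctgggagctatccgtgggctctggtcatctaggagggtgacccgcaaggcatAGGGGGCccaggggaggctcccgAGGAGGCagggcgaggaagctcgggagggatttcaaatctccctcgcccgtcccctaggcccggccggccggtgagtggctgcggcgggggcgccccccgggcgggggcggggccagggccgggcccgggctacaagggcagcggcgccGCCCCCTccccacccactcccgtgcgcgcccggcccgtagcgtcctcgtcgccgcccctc
Dnmt3l upstream: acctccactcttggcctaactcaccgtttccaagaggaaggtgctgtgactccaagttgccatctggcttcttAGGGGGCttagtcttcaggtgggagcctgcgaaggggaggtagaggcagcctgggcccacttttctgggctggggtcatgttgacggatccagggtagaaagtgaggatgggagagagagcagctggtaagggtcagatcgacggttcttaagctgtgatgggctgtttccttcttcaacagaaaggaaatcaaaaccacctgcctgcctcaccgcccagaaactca
Dnmt3l middle: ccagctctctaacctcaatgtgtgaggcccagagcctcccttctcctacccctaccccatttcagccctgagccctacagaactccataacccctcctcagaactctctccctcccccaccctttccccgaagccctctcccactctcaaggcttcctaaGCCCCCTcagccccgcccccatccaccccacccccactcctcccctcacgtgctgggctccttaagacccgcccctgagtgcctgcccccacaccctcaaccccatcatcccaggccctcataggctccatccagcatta
The Dnmt3b window held 30 CpG dinucleotides and 3 matches, while the Dnmt3l windows held 6 and 4 CpG dinucleotides with 1 match each. A further Dnmt3l window held 3 CpG dinucleotides and no match. Dnmt3b thus has a promoter dense in CpG, and Dnmt3l has promoters below the median of 7 CpG dinucleotides per window. Whether CpG density goes with the differences between the arrays was not tested. At least 1 match was found in 29.4% of all 32851 promoter windows and in 49.4% of the 8701 windows with 20 or more CpG dinucleotides. Among the 17 windows of the 10 genes, 12 windows from 8 genes had a match, 9 of the 17 having 20 or more CpG dinucleotides. The genes without a match were Tet1 and Uhrf1. Overlapping windows of Dnmt3a share a match, so the windows are not independent counts. A match is a description of the letters and not evidence of binding.

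The maintenance genes differed little between the arrays. Dnmt1 was at 8.72 induced and 8.86 non-induced (probe set 10591369), a difference of -0.14. Uhrf1, whose product recognizes hemimethylated CpG, was at 9.72 induced and 9.75 non-induced (probe set 10446074), a difference of -0.03. Its paralog Uhrf2, which does not replace it in maintenance, was at 7.38 induced and 7.48 non-induced (probe set 10462454), a difference of -0.11. All 3 lay within the middle 50% of genes at or above the floor, which ran from -0.28 to 0.22. The sign of Uhrf1 was not stable to scaling, since it was at 0.05 after centring on the genes at the floor, 0.06 after lowess and 0.09 after quantile normalization, and Dnmt1 was at 0.01 after quantile normalization. Dnmt3l stood 0.71 below Dnmt1 and 0.81 below Uhrf1 in its difference between arrays.

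DNMT1 and UHRF1 act at replication forks, and the promoters of their genes are shown for a loose form of the binding site of the E2F factors, which drive S phase genes. Matches to TTTNNCGC on either strand are in capitals. The windows are chr9:20952574-20952873 on the - strand for Dnmt1 and chr17:56304063-56304362 on the + strand for Uhrf1, both in GRCm38.p6 and from RefSeq.
Dnmt1: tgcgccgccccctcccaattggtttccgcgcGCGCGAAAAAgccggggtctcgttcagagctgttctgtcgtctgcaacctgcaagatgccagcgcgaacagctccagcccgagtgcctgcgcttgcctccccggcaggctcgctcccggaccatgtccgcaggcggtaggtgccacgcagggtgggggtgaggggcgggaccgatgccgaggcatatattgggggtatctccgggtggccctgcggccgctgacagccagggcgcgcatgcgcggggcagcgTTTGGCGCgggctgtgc
Uhrf1: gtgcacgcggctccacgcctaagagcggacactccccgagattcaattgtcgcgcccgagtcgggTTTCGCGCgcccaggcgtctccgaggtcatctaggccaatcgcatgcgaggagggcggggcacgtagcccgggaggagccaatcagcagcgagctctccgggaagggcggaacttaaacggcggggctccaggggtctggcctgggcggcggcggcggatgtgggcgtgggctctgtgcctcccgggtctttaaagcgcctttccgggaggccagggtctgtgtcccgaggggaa
The Dnmt1 window held 3 matches, of which the leading pair overlap each other, and the Uhrf1 window held 1, as did a second Uhrf1 window. Each of the windows printed held 33 CpG dinucleotides. These were the 2 genes of the 10 with a match, in 3 of 17 windows, and 5.17% of all windows and 9.88% of those with 20 or more CpG dinucleotides had one. No window of Dnmt3b, Dnmt3l, Tet1 or Tet2 had a match. The S phase genes listed as a comparison had a median difference of -0.07 over 21 genes, all at or above the floor. Of these, 12 were below 0 and 9 above, and 53.4% of all genes at or above the floor were below 0. Ccne2, which encodes a cyclin of S phase entry, was at 8.30 induced and 9.73 non-induced. Gins1 and Tyms, of the replicative helicase and of thymidylate synthesis, differed by -0.65 and -0.64. Of the 9 above 0, Rrm2 was the farthest out, at 10.86 induced and 10.37 non-induced (0.49). The part of the cell cycle in the values of Dnmt1 and Uhrf1 was not tested.

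Of the demethylation genes, Tet1 and Tet2 had lower signals on the induced array. Tet1, the main TET gene of ES cells, has 3 probe sets. They were at 8.72 induced and 9.10 non-induced (10369702), at 8.48 and 8.84 (10369690), and at 8.16 and 8.76 (10369688). The differences were -0.38, -0.35 and -0.60, so that all 3 ran the same way and spanned 0.24. Among 772 genes at or above the floor with several probe sets, the median span between probe sets of the same gene was 0.21. Tet2 was at 7.59 induced and 7.94 non-induced (probe set 10502284), a difference of -0.35. As many as 18.0% of genes at or above the floor were as low as Tet1 by its brightest probe set or lower, and 19.3% as low as Tet2. Tet3, the TET gene of oocytes and zygotes, was below the floor on both arrays. Its probe sets went opposite ways, at 6.19 induced and 6.06 non-induced (10545692) and at 5.83 induced and 6.19 non-induced (10545682), and no direction is given for it.

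The Tet1 promoter is shown because the 3 probe sets of this gene ran the same way and its window has no match to either motif. It is chr10:62887275-62887574 on the - strand in GRCm38.p6 (RefSeq), 5′ to 3′, with nothing to capitalize.
Tet1: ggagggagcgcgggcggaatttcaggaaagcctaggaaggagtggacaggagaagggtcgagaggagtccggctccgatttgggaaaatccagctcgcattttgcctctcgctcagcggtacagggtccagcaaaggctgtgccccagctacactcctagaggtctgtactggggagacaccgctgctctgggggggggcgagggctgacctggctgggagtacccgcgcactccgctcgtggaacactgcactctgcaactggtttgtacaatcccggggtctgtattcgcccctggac
It held 17 CpG dinucleotides. The single window of Tet2 held 57, which is more than in most promoters, since 99.9% of all windows held as many or fewer.

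As a group, 8 of the 9 measured genes had a difference below 0, against 48.6% of all 19938 genes. Of the 8 at or above the floor all 8 were below 0, against 53.4% of the 10697 genes. The number of the 9 below 0 was 6 after quantile normalization, 7 after lowess or centring on the genes at the floor, 8 after median centring or with a constant, and 9 with the mean or the dimmest probe set of a gene, where Tet3 was below 0 too. All genes shifted with the scaling as well, the share of genes at or above the floor with a difference below 0 being 47.2% after quantile normalization, 43.8% after centring on the genes at the floor, between 47.2% and 53.3% after lowess, 64.4% after median centring, and 53.4%, 53.5% and 53.3% with the constant, the mean and the dimmest probe set. No gene of the group was lower or higher by log2 1 or more, where 1.79% of genes at or above the floor were lower and 0.477% higher by that size. At log2 0.58, 1 gene (Dnmt3l) was lower and 0 were higher, against 8.45% lower and 5.31% higher. A count of 1 in 8 is too small to be set apart from that share. The median difference was -0.14 over the 9 genes and 0.01 over all genes, and -0.25 over the 8 and -0.03 over all genes at or above the floor. By role the medians were -0.51 for the de novo genes, -0.35 for the TET genes and -0.11 for the maintenance genes. With 3 genes per role these are the values of Dnmt3b, Tet2 and Uhrf2, and the TET median counts Tet3, which was below the floor.

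**Figure D2:**
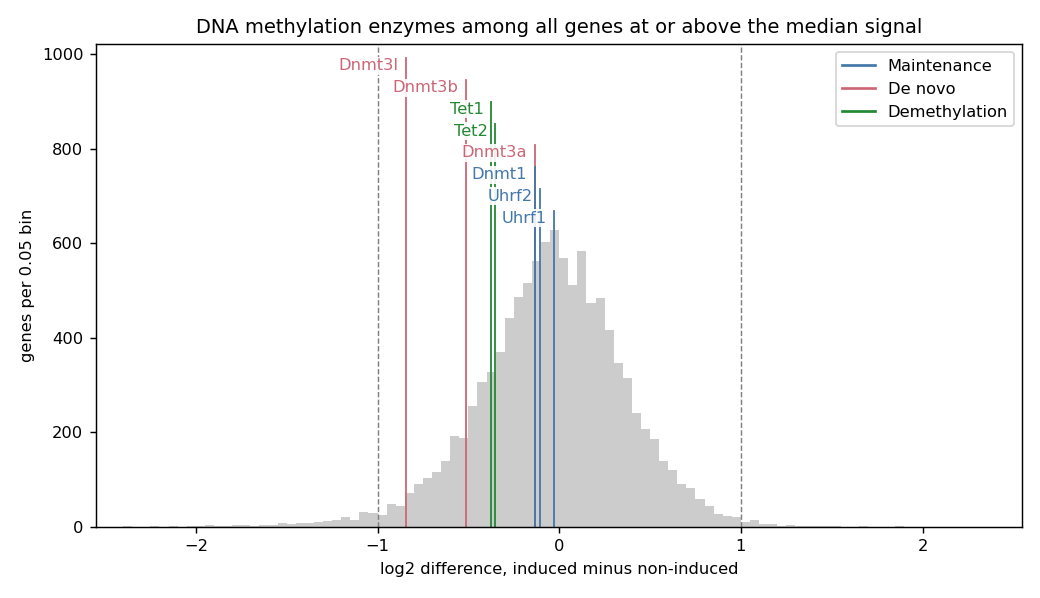
Number of genes (y axis) in bins of 0.05 of the log2 difference, induced minus non-induced (x axis), for the 10697 genes at or above the floor, with values past 2.5 either way drawn in the end bins. Coloured lines mark 8 genes by role, and dashed lines mark log2 1. All 8 lines are left of 0 and none is left of -1, with Dnmt3l at -0.84 the farthest out.

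**Figure D3:**
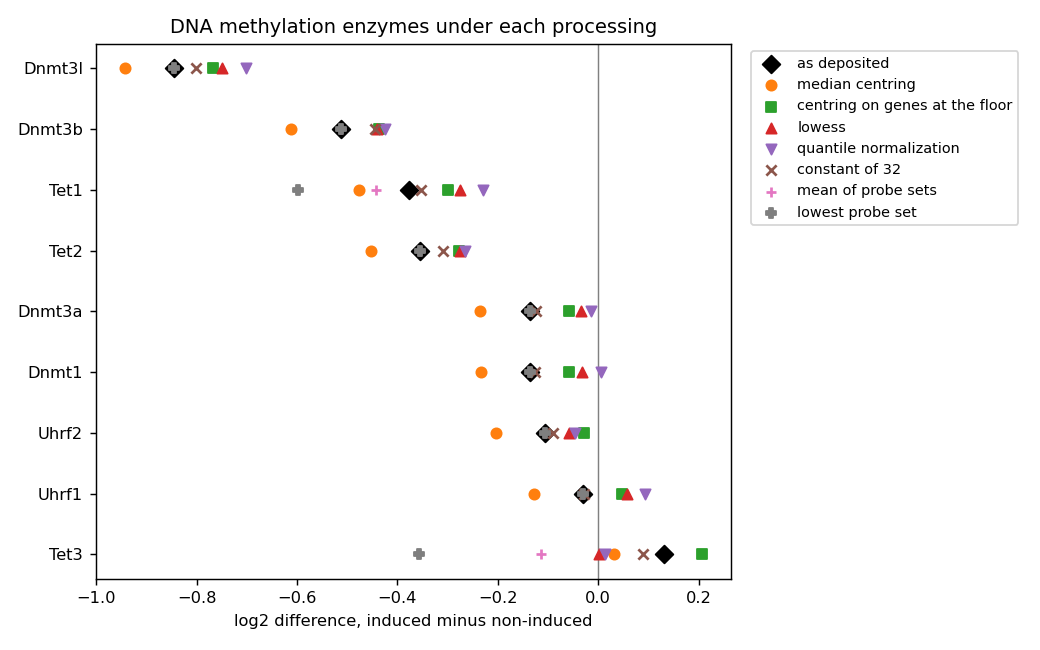
Log2 difference, induced minus non-induced (x axis), of each of the 9 genes (y axis) as deposited and under 7 other ways of processing, 1 symbol each. Dnmt3l, Dnmt3b, Tet1 and Tet2 stay below 0 under every one, Dnmt3l between -0.94 and -0.70, while Uhrf1, Dnmt1 and Tet3 cross 0.

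The 4 genes with the widest differences kept their sign under each of the 7 other ways of scaling the arrays or choosing the probe set. Dnmt3l ran from -0.94 to -0.70, Dnmt3b from -0.61 to -0.42, Tet1 from -0.60 to -0.23 and Tet2 from -0.45 to -0.26. Dnmt3a also stayed below 0, at -0.23 to -0.01, and so did Uhrf2, at -0.20 to -0.03.

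Genes that overlap the group in the RefSeq annotation were looked up, and whether their probe sets read each other's transcripts was not tested. Dnmt3aos, a noncoding RNA gene that overlaps Dnmt3a, was named after its values were seen. It was at 6.75 induced and 5.84 non-induced, a difference of 0.91 where Dnmt3a itself was at -0.14. Dnmt3aos reached the floor on the induced array alone. Aire, the thymic autoimmune regulator gene that overlaps Dnmt3l in the annotation, was at 6.99 induced and 6.97 non-induced. The strand that the probe sets read was not examined.

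Partners, recruiters and antagonists of the methyltransferases were taken as a single list, which also held the family member Trdmt1. Of its 21 measured genes, all at or above the floor, 18 were below 0, beside 53.4% of all genes at or above the floor. Their median was -0.25. At a size of log2 1, 2 were lower (Dppa3 and Trdmt1) and none was higher, beside 1.79% and 0.477%. Dppa3, whose product binds UHRF1 and protects the maternal genome in the zygote, was at 7.16 induced and 8.99 non-induced (-1.83), and at -1.84 by its other probe set. Trdmt1, a member of the methyltransferase family that acts on transfer RNA, was at 6.89 induced and 8.28 non-induced (-1.40). Hells, a chromatin remodeller needed for methylation of repeats, was at 10.50 and 11.04 (-0.54). Cdca7l, a paralog of its activator Cdca7, was at 7.50 and 7.92 (-0.42), while Cdca7 itself was at 10.08 and 10.11 (-0.02). Prdm14, which represses Dnmt3b and Dnmt3l in ES cells, was named after its values were seen. It was at 7.30 induced and 7.64 non-induced (-0.34), and its part in the values of Dnmt3b and Dnmt3l was not tested.

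The readers of methylated CpG went both ways, with a median of 0.03. All were at or above the floor, and 4 of 8 were below 0, beside 53.4% of all genes at or above the floor. Mbd2 was at -0.37 and Zbtb33, also known as Kaiso, at -0.32, while the zinc finger readers Zbtb38 and Zbtb4 were at 0.37 and 0.23. Zbtb38 reached the floor on the induced array alone. None of the 8 was past log2 0.58 either way, where 8.45% of genes at or above the floor were lower and 5.31% higher.

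Partners and cofactor enzymes of the TET proteins had a median of -0.16, with 7 of 11 below 0, beside 48.6% of all genes. None was past log2 0.58, where 8.45% of genes at or above the floor were lower and 5.31% higher. Ogt, the glycosyltransferase that TET proteins bind, was at 8.92 induced and 9.45 non-induced (-0.53), and Dcaf1, a ubiquitin ligase receptor, at 8.47 and 8.96 (-0.49). The mitochondrial dehydrogenase Idh2, which makes the 2-oxoglutarate that TET enzymes consume, was at 10.17 and 9.75 (0.42), and Ogdh, which uses it up, at 9.21 and 8.90 (0.32).

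Of 17 genes of base excision repair and the GADD45 family, 10 were below 0, with a median of -0.08. Of those at or above the floor 53.3% were below 0, about the share of all genes (53.4%). At a size of log2 1 a single gene was lower, beside 1.79% of all genes. This was Polb, the polymerase that fills the gap left after TDG and the endonuclease, at 8.88 induced and 9.97 non-induced (-1.08, and short of log2 1 after lowess or quantile normalization). At log2 0.58, 3 of the 15 at or above the floor were lower and none was higher, beside 8.45% and 5.31% of all genes. Past that size were also the ligase gene Lig3 (-0.66) and the endonuclease gene Apex2 (-0.62). The glycosylase gene Neil1 was at 0.42 and reached the floor on the induced array alone. Of the cytidine deaminases, Apobec3 was at -0.53 by its brighter probe set and 0.48 by the other, and Apobec2 at -0.26. In the supply of S-adenosylmethionine, 10 of 15 genes were below 0, beside 48.6% of all genes, with a median of -0.12. Mat2b, a regulatory subunit of the synthetase, was at -0.50, the methionine synthase gene Mtr at -0.35, the adenosine kinase gene Adk at -0.32 and the folate enzyme gene Mthfd2 at 0.35.

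Over the 74 measured genes of these 6 lists, 51 were below 0. At a size of log2 1, 3 were lower and none was higher, beside 1.79% and 0.477% of all genes at or above the floor. Of the 68 at or above the floor 70.6% were below 0, against 53.4% of all genes at or above the floor. The number below 0 ran from 45 after quantile normalization to 54 after median centring, the settings under which 47.2% and 64.4% of all genes at or above the floor were below 0. These shares describe 2 arrays and lists chosen with earlier results of these data known. Lowess removes a trend of the difference with signal level. After it 49 of the 74 were below 0 and their median was -0.09, against -0.14 as deposited. The median of all genes after lowess was 0.003. Any further part that comes with signal level was not tested.

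**Figure D4:**
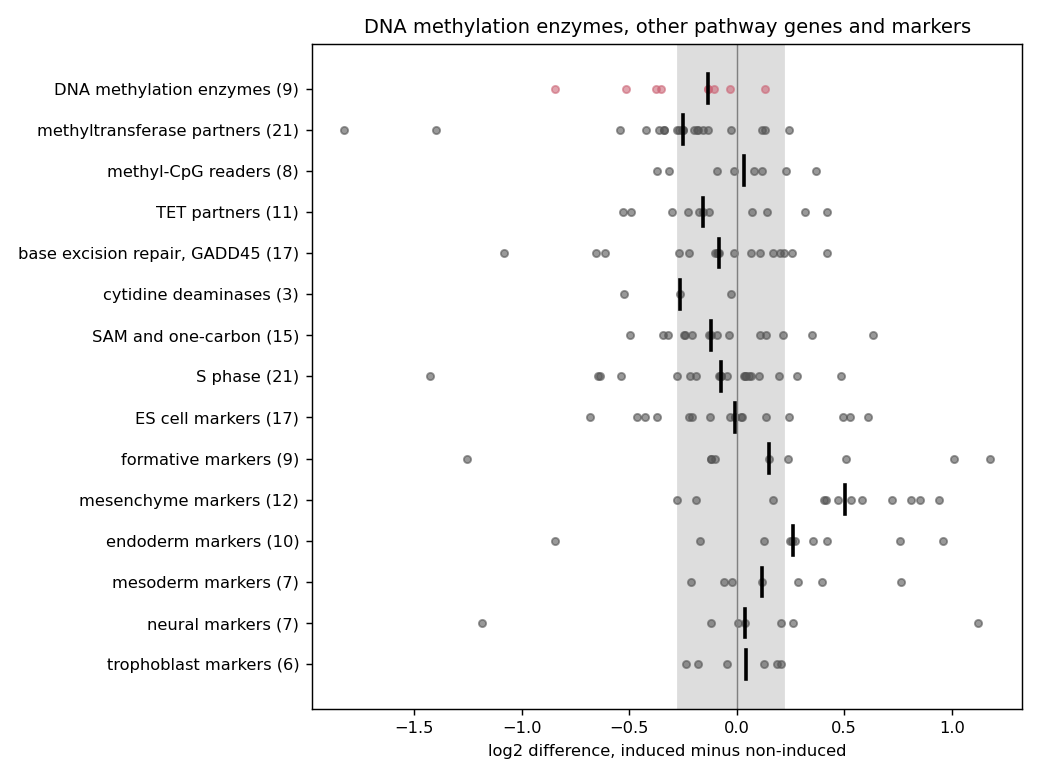
Log2 difference, induced minus non-induced (x axis), of each gene (points) of the DNA methylation enzymes, 6 lists of other pathway genes, the S phase genes and 7 marker lists (y axis, number of measured genes in brackets), with each median as a black bar and the middle 50% of genes at or above the floor in grey. The partners, recruiters and antagonists of the methyltransferases, labelled as partners, lie mostly left of 0 (median -0.25). The mesenchyme markers lie mostly right (median 0.50).

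Markers of cell states, in lists chosen with earlier results of these data known, were then set beside these values. The 17 ES cell markers had a median of -0.01, with 10 below 0, beside 53.4% of all genes at or above the floor. Their summed linear signal was 27087 induced and 27239 non-induced. Fbxo15 at -0.68 and Tcl1 at 0.61 were the farthest out. The 9 formative and epiblast markers, a state in which Dnmt3b is high, had a median of 0.15 and summed to 1430 induced and 1221 non-induced. Of the 9, 4 were below 0 and 5 above, beside 9696 and 10240 of all 19938 genes. Zic2 (5.36 induced, 6.62 non-induced, a difference of -1.26), Sall2 (6.93 and 5.92, 1.01) and Nkx1-2 (7.48 and 6.30, 1.18) each reached the floor only on the array where they were brighter. Of the 12 mesenchyme markers 10 were above 0 (median 0.50), against 10240 of all 19938 genes, and the markers summed to 1305 induced and 930.5 non-induced. Ccn1 was at 7.64 induced and 6.70 non-induced (0.94), and Loxl1 at 6.42 and 5.56 (0.85), at the floor on the induced array alone. Of the 10 endoderm markers 8 were above 0 (median 0.26), against 10240 of all 19938 genes. They summed to 940.6 induced and 727.8 non-induced. Cited1 was at 8.11 induced and 7.15 non-induced (0.96), and Foxa2 at 5.83 and 6.68 (-0.85), at the floor on the non-induced array alone. The sums were 592.2 induced and 520.3 non-induced for 7 mesoderm markers, 838.0 and 887.0 for 7 neural markers, and 605.5 and 575.5 for 6 trophoblast markers. Above 0 were 4 mesoderm (median 0.12), 5 neural (median 0.04) and 3 trophoblast markers (median 0.04), beside 10240 of all 19938 genes. The neural sum was thus lower on the induced array although most neural markers were above 0. Stmn2, a neural marker, was at 6.67 induced and 7.86 non-induced (-1.19). No array value is a true 0, so no marker could be called absent. Whether other cell types or the sort had a part in the values of Dnmt3l, Dnmt3b, Tet1 and Tet2 was not tested.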

How the data were processed

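For each group, 300 ng of total RNA was labelled with biotin and hybridized to 1 Affymetrix Mouse Gene ST array. The deposited values are log2 signals, 1 per probe set, which the authors obtained by robust multi-array averaging (RMA), with background correction and quantile normalization. RMA compresses differences of dim genes. The RMA version and the build behind the platform annotation are not stated in the sources used here, and the log2 scale was read from the range of 1.36 to 14.5. The number of arrays limits the precision.

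Of 35557 probe sets, 21789 had 1 gene symbol in the platform annotation, 1621 had several and 12147 none. Those with 1 symbol were named, 21698 of them through RefSeq gene identifiers (GRCm38.p6), and the probe set with the highest mean stood for a gene. Sequences came from RefSeq, and all 10 genes were matched to promoter windows. The genes of the group and the lists were chosen with earlier results of these data known. Of 14 lists, 11 entries had no probe set with 1 symbol and were not analysed here. From each list up to 4 genes at or above the floor with the widest difference were named. Prdm14, Cdca7, Rrm2, Dnmt3aos, Aire, Pou5f1, Sox2 and Nanog were named outside this rule. The planned comparison of protein sequences was not made.

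The alternatives were median centring over all genes or over those at the floor, lowess (fraction 0.3), a second quantile normalization, a constant of 32 on the linear scale, the mean or the dimmest probe set of a gene, a size of log2 0.58, no floor or one at the 75th percentile, and, for lists, the mean instead of the median. The steps were tested on simulated data. Python 3.11.15, numpy 2.4.6, pandas 2.3.3, statsmodels 0.14.6 and matplotlib 3.10.9 were used.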

Additional observations from a re-analysis of the deposited data

How the results depend on the processing

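No paired analysis was possible because each group had 1 array and the labels give no replicate numbers. With no replicates, a value was taken as moved when it changed by 0.25 or more, the semi-interquartile range of the differences of genes at or above the floor, and a count when it changed by more than 1.5 times. No median of a list moved by that much, and the median of the 9 genes ran from -0.35 to -0.05. Of 420 values of named genes under the alternatives 9 moved. These were Tet3 (-0.36 with the dimmest probe set), Apobec3 (-0.02 with the mean and 0.48 with the dimmest probe set) and, with the constant of 32, Foxa2 (-0.60), Loxl1 (0.57), Nkx1-2 (0.92), Sall2 (0.73), Thbs1 (0.56) and Zic2 (-0.83). Of the 9 genes, those lower by log2 0.58 were 2 after median centring (with Dnmt3b) and 2 with the dimmest probe set (with Tet1), against 1.

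With the size at log2 0.58 in place of log2 1, lower genes were 1 in place of 0 for the 9 genes, 5 in place of 3 for the other pathway genes, 3 in place of 1 for repair and for S phase, and 1 in place of 0 for ES cell and for endoderm markers. Higher genes were 4 in place of 0 for mesenchyme, 2 in place of 0 for endoderm, and 1 in place of 0 for ES cell and for mesoderm markers. At or above the floor were 68 other pathway genes, 15 repair and 21 S phase genes. Of the markers, 17 ES cell, 9 mesenchyme, 5 endoderm and 3 mesoderm genes were. Among all genes at or above the floor, 8.45% were lower and 5.31% higher by log2 0.58, and 1.79% and 0.477% by log2 1. Repair genes lower by log2 1 were 0 in place of 1 after lowess or quantile normalization. Formative markers lower were 0 in place of 1, and those higher 0 in place of 2, with the constant or with the floor at the 75th percentile, and those higher were 1 after median centring, lowess or quantile normalization. Mesenchyme markers higher were 1 in place of 0 after centring on genes at the floor, as were endoderm markers, also after lowess and quantile normalization. Neural markers lower were 0 in place of 1 with the constant, and those higher 1 in place of 0 without a floor. The cause of these changes was not tested. Centring on the median over all genes put the median difference of all genes at -0.09, against 0.01 as deposited.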

Other observations

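Tdg itself has no value above. The 4 probe sets that the platform annotation gives to both Tdg and its pseudogene Tdg-ps2 were at 8.94 to 9.24 on the induced array and at 9.10 to 9.39 on the non-induced array, with differences of -0.16, -0.15, -0.15 and -0.08, and which transcript they read cannot be said from the annotation. B230319C09Rik, a noncoding RNA gene that overlaps Tet3 in the annotation, was at 5.80 induced and 5.45 non-induced, below the floor on both arrays. Glt8d2, which overlaps Tdg, was also below the floor, at 5.17 induced and 5.51 non-induced.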
